A study of Mus musculus with 48 samples.

Results

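The 10 genes described here encode proteins that fold and modify proteins inside the endoplasmic reticulum (Hspa5, Hsp90b1, Calr, Canx, Pdia3, Pdia4 and Pdia6) and transcription factors of the unfolded protein response (Xbp1, Atf4 and Ddit3). They were measured by 13 probe sets, which were all the probe sets whose platform annotation names 1 of these symbols, out of 12488 probe sets on the array. Expression was measured on 48 Affymetrix arrays in mouse hippocampus (26 arrays) and amygdala (22 arrays), in 3 arms labelled FC, CS and NH. The series title concerns associative and nonassociative learning. The letters are not explained in the labels, and in a study of this kind they likely stand for fear conditioning, the conditioned stimulus alone and naive home cage animals. Hippocampus had 8 FC, 8 CS and 10 NH arrays, and amygdala had 6 FC, 6 CS and 10 NH arrays. Strain, sex, age and the time between training and tissue collection are missing from the labels, and the labels do not state that the arrays of an arm came from separate animals. The p-values therefore measure no more than the spread among these arrays, part of which may be technical.

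Hspa5 encodes BiP, the Hsp70 chaperone of the endoplasmic reticulum, and Hsp90b1 encodes its Hsp90 chaperone, GRP94. Calreticulin (Calr) and calnexin (Canx) are the lectin chaperones that hold newly made glycoproteins, and Pdia3, Pdia4 and Pdia6 belong to the protein disulfide isomerases, which form and rearrange disulfide bonds. When unfolded proteins accumulate, the sensor IRE1 splices Xbp1 mRNA so that it encodes an active transcription factor, the sensor PERK favours translation of Atf4 mRNA, and Atf4 in turn raises Ddit3 (CHOP), while cleaved ATF6 and spliced XBP1 raise the chaperone genes. Both splicing of Xbp1 and translation of Atf4 act after transcription, and a probe set level reports neither of them. In neurons the endoplasmic reticulum supplies receptors, channels and secreted peptides, and Xbp1 has been studied in mouse hippocampus for a role in memory.

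A promoter element that many of these chaperone genes share is the endoplasmic reticulum stress element (ERSE), which reads CCAAT, then 9 bases of any kind, then CCACG, and which NF-Y and ATF6 are known to bind. The 10 promoters of the RefSeq table (build GRCm38.p6, from 250 bases before to 50 bases after each gene's start) were searched for it on both strands. It occurred 6 times, in 5 of the 10 promoters: Hspa5, Hsp90b1, Calr, Canx and Pdia6. In all 32851 promoters of the same length, 39 held a match, or 0.119%. These sites are shown because the chaperones they belong to are the ones whose levels are compared below. Each run is 39 bases with CCAAT and CCACG in capitals, is read 5′ to 3′ on the strand where CCAAT comes first, and lies before the gene's start.
Hspa5, chr2:34772015-34772053, plus strand: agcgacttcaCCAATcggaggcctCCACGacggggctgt
Hsp90b1, chr10:86705628-86705666, minus strand: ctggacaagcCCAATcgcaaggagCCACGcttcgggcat
Hsp90b1, chr10:86705523-86705561, plus strand: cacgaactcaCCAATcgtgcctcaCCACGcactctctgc
Calr, chr8:84847065-84847103, plus strand: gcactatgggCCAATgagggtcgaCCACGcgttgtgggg
Canx, chr11:50325790-50325828, minus strand: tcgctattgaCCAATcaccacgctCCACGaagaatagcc
Pdia6, chr12:17266481-17266519, plus strand: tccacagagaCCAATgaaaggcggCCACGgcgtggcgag

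The motif ran from 65 to 47 bases before the start in Hspa5, from 98 to 80 bases before it in Pdia6 and from 145 to 127 bases before it in Canx, each on the gene's own strand. Hsp90b1 held 1 match on its own strand, 212 to 194 bases before the start, and another on the opposite strand, 107 to 89 bases before it. The match of Calr, 162 to 144 bases before the start, was on the opposite strand. No match was found in the windows of Xbp1, Pdia3, Pdia4, Ddit3 and Atf4. ERSE-II (ATTGG, then any base, then CCACG) was also looked for on both strands. Of further elements, only the core of the XBP1 element (TGACGTGG) and the core of the cAMP response element (TGACGTCA) were looked for. Neither ERSE-II nor these cores occurred in the 10 promoters, against 0.0365%, 0.676% and 1.79% of all promoters. A match describes the letters of the window and is no evidence of binding.

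Levels are log2 of the deposited intensity, and differences between arms are log2 differences fitted in each tissue with limma, with the processing batch in the model. The labels give this batch for every array. Batches that hold NH arrays alone add nothing to a difference, so that FC minus NH and CS minus NH rest on 4 NH arrays in each tissue, and they share them. Hippocampus batch 5, with FC and CS arrays and no NH array, enters FC minus NH and CS minus NH through its FC minus CS difference, so that a fitted value can lie outside the range of the values in batches 4 and 6. The dimmest 40% of probe sets in a tissue, by their mean, were left out of the tests between arms. Calr (93523_at) and 1 of the 2 Canx probe sets (160180_at) lay below that limit in both tissues, which left 11 member probe sets among 7453 tested in each tissue. Tissue markers were checked within each array by percentile. In 5 of 9 hippocampal genes, Neurod6 and Prox1 among them, every hippocampus array ranked above every amygdala array, and 1 gene of that list, Wfs1, ranked higher in every amygdala array. Of 6 genes on the amygdala list, Tac2 and Cdh13 ranked higher in every amygdala array, and Rspo2 went the other way.

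No member passed the threshold, an adjusted p below 0.05 over all probe sets tested, in any of the 6 comparisons between arms. The background was itself almost empty. In hippocampus 0.0134% of all tested probe sets passed for FC minus NH, 0.0134% for CS minus NH and 0% for FC minus CS, and in amygdala the shares were 0.0939%, 0.0134% and 0%. At an unadjusted p below 0.05, 2 of the 11 members were lower in FC than in NH hippocampus (Xbp1 and Hspa5), where 0.738% of all probe sets were lower. Likewise 1 of 11 (Xbp1) was lower in CS than in NH hippocampus, against 0.416% of all probe sets, and 1 of 11 (Atf4) was higher in FC than in NH amygdala, against 4.05%. In the other comparisons no member had an unadjusted p below 0.05. The members were chosen with earlier results of these data known. Xbp1 and Hspa5 were measured on the same arrays and varied together between hippocampus arrays of 1 arm and batch (r = 0.782). These counts are therefore a description and no test of the members as a set. The median difference of the 11 members was -0.07 for FC minus NH, -0.05 for CS minus NH and -0.04 for FC minus CS in hippocampus, and -0.03, 0.01 and -0.04 in amygdala. Over all tested probe sets these medians lay between -0.0005 and 0.01.

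**Figure D1:**
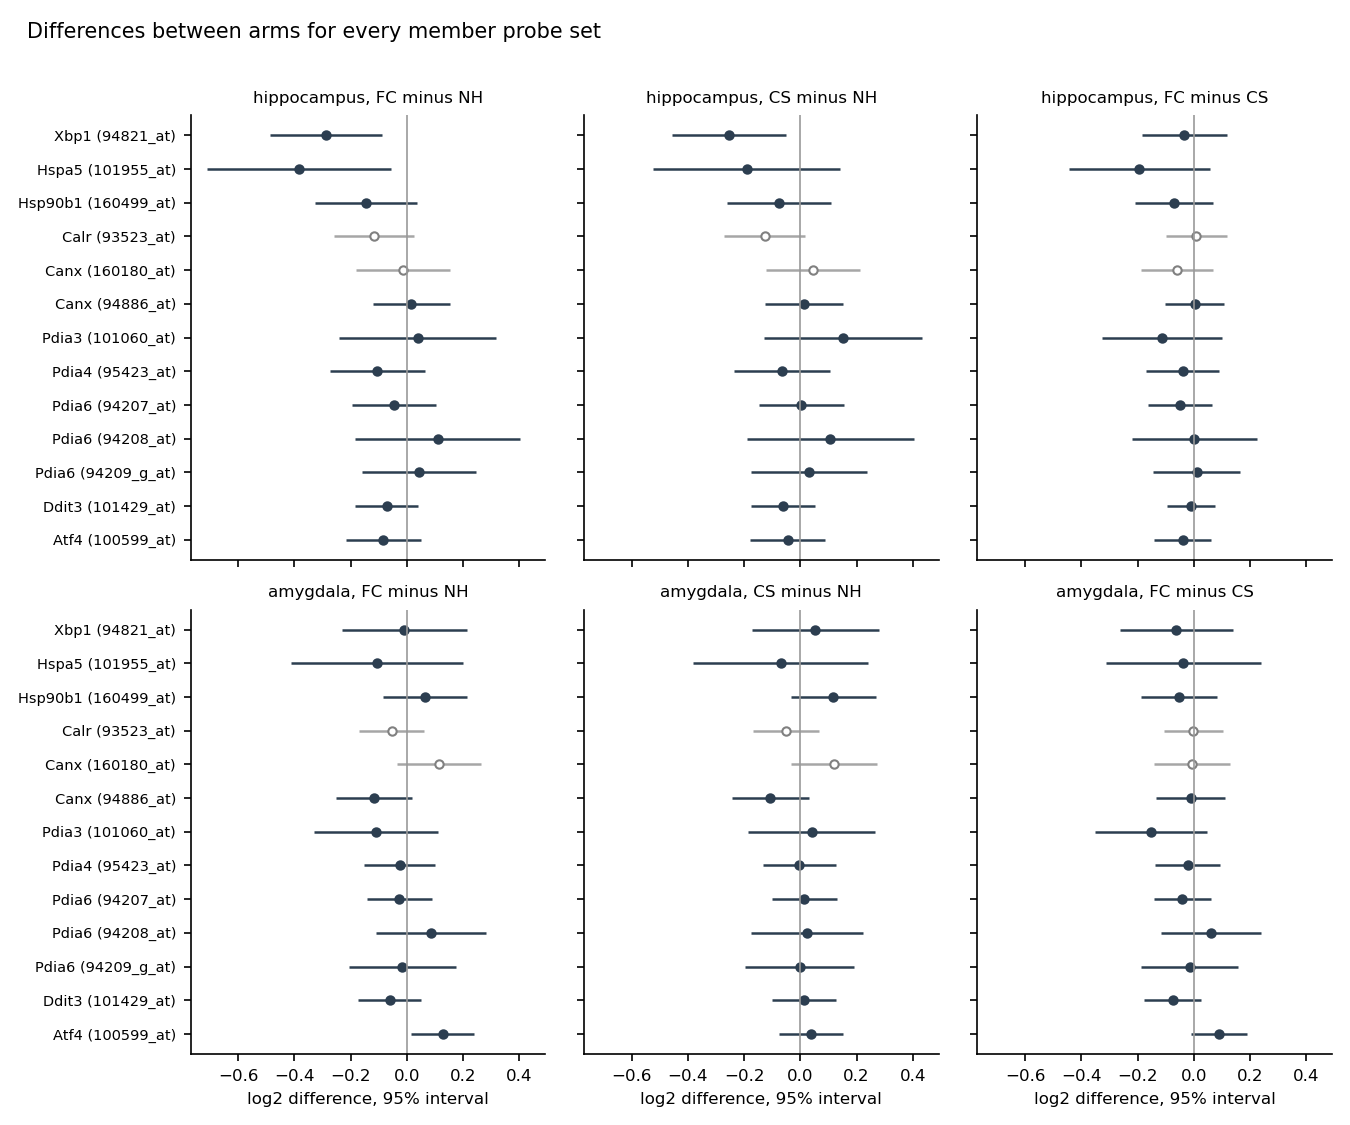
Log2 difference between arms (points) with its 95% interval (lines) for each of the 13 member probe sets, from the limma fit with batch in the model. Hippocampus is above and amygdala below, and grey open points are the 2 probe sets too dim to be tested. The intervals of Xbp1 for FC minus NH and CS minus NH and of Hspa5 for FC minus NH in hippocampus, and of Atf4 for FC minus NH in amygdala lie clear of 0, and none of these differences passed after adjustment.

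Xbp1 (94821_at), the transcription factor that IRE1 activates, had lower values in the FC and CS arms of hippocampus when arrays of 1 batch were set side by side, although the difference did not pass. In batch 4 its levels were 7.07 and 7.33 in the FC arrays and 7.21, 7.24 and 7.36 in the CS arrays, against 7.30 and 7.65 in the NH arrays. In batch 6 they were 7.75 and 7.90 in the FC arrays and 7.63 in the CS array, against 7.99 and 8.16 in the NH arrays. Thus 3 of the 4 FC arrays and 3 of the 4 CS arrays lay below every NH array of their batch. For partial counts of this kind, here and below, no share over all probe sets is given, so they are a description. The fitted difference was -0.29 ± 0.0969 (SE) for FC minus NH, with a 95% interval from -0.49 to -0.088, and it ranked 20th by p among 7453 probe sets (unadjusted p = 0.00635, limma adjusted p = 0.9999). For CS minus NH it was -0.25 ± 0.0981 (unadjusted p = 0.0157, limma adjusted p = 0.9999). FC and CS arrays differed from each other by -0.03, with an interval from -0.19 to 0.12.

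Xbp1 differed more between batches than between arms. In NH arrays alone it averaged 7.48 in batch 4, 8.08 in batch 6 and 7.68 in batch 7, which holds NH arrays only. Over all batches the arms of hippocampus overlapped widely: the lowest, median and highest levels were 7.07, 7.64 and 7.90 in FC, 7.21, 7.62 and 7.77 in CS, and 7.30, 7.69 and 8.16 in NH. With no batch in the model the FC minus NH difference was -0.16. The difference held its sign when any 1 array was left out, from -0.37 without the NH array numbered 111 to -0.23 without the NH array numbered 100, both of batch 4.

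In amygdala the Xbp1 levels of the arms overlapped. In batch 2 its levels were 6.81, 7.06, 7.07 and 7.08 in the FC arrays, against 6.69, 7.00 and 7.26 in the NH arrays, and in batch 3 they were 6.82 and 7.01 in the FC arrays, against 7.05 in the single NH array. The fitted FC minus NH difference was -0.0089, with an interval from -0.23 to 0.21. For CS minus NH it was 0.05, with 0.24 in batch 2 alone and -0.27 in batch 3 alone. The difference between the tissues was tested in a joint fit that treats all arrays as independent. The array numbers leave this in doubt, since amygdala numbers such as 21927 and 16364 can be read as the batch followed by a pair of numbers, here 19 and 27 (FC) or 63 and 64 (NH), that hippocampus arrays of the same arm also carry. The tissues may thus share animals, and the errors and p-values of differences between tissues do not allow for it. The difference was 0.28 ± 0.151 for FC minus NH (adjusted p = 0.981 with limma) and 0.31 ± 0.153 for CS minus NH (unadjusted p = 0.0512, limma adjusted p = 0.998), and neither passed.

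**Figure D2:**
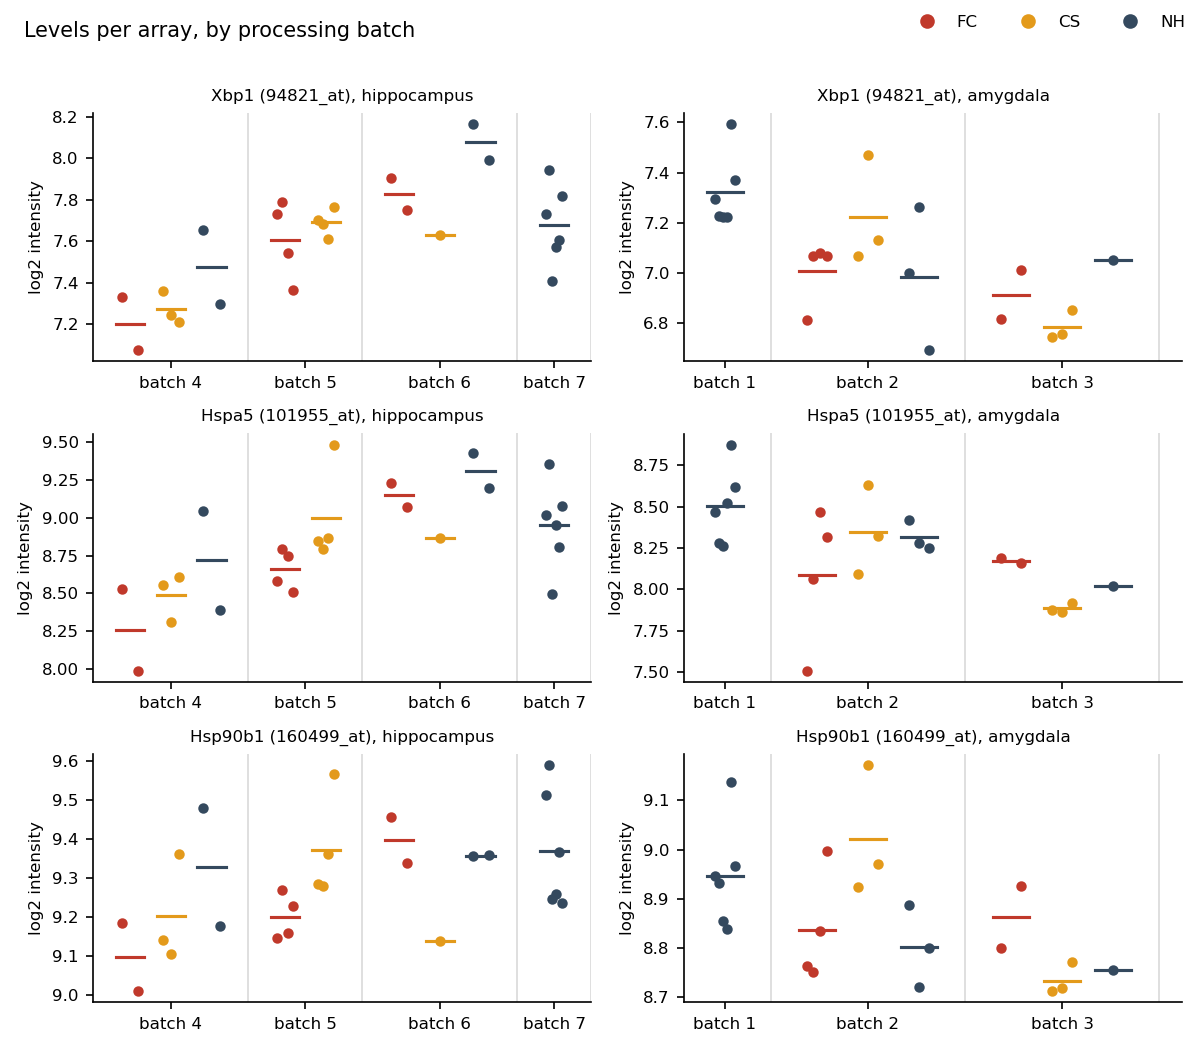
Log2 intensity of Xbp1, Hspa5 and Hsp90b1 in every array (points), grouped by processing batch and, within it, by arm from left to right (FC, CS, NH), with short lines at the means. In hippocampus batches 4 and 6 the FC means of Xbp1 (7.20 and 7.83) stand below the NH means (7.48 and 8.08), and the batches differ from each other by more than the arms do.

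Atf4 (100599_at), the factor translated when PERK is active, had its lowest unadjusted p among the 6 comparisons in amygdala, where it was higher in FC arrays. In amygdala batch 2 its levels were 8.64, 8.69, 8.77 and 8.80 in the FC arrays and 8.60, 8.66 and 8.75 in the CS arrays, against 8.52, 8.64 and 8.68 in the NH arrays. In batch 3 they were 8.77 and 8.77 in the FC arrays and 8.54, 8.57 and 8.77 in the CS arrays, against 8.61 in the NH array. In 5 of the 6 FC arrays the level exceeded that of all NH arrays run in the same batch, where batch 3 held a single NH array. The share of all probe sets with such a count is not given. The FC minus NH difference was 0.13 ± 0.054, with an interval from 0.015 to 0.24. It ranked 211th by p among 7453 probe sets and did not pass (unadjusted p = 0.0273, limma adjusted p = 0.894). For CS minus NH it was 0.04, and for FC minus CS 0.09 ± 0.0488.

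The Atf4 difference passed under 2 other settings. It was 0.16 (limma adjusted p = 0.0231) with arrays weighted by their quality and 0.21 (limma adjusted p = 0.0303) with no batch in the model. The weights raised the count over all probe sets to 911 and the fit without batch raised it to 211, against 7 in the fit reported here. The 6 NH arrays of batch 1, which has no other arm, ran from 8.40 to 8.56. Between these arrays and the FC arrays, all of other batches, a difference of arm and a difference of batch cannot be told apart. In hippocampus the Atf4 difference for FC minus NH was -0.08, with an interval from -0.22 to 0.05, and the difference between tissues, again with arrays taken as independent, was 0.21 ± 0.0822 (unadjusted p = 0.0138, limma adjusted p = 0.981).

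Ddit3 (101429_at), which encodes the stress-induced factor CHOP, was among the steadiest of the members. Its SD between arrays of 1 arm and batch was 0.072 in hippocampus and 0.0771 in amygdala, and 93.1% and 84.0% of all tested probe sets varied more. Its lowest, median and highest levels in hippocampus were 6.89, 6.97 and 7.16 in FC, 6.88, 7.01 and 7.25 in CS, and 7.01, 7.07 and 7.27 in NH. The FC minus NH difference was -0.07 ± 0.0545, with an interval from -0.18 to 0.04 that included 0 (unadjusted p = 0.199, limma adjusted p = 0.9999). In the shared batches 3 of the 4 FC arrays lay below all NH arrays of the batch they were run in. How many of all probe sets reach such a count is not given. In amygdala the FC minus NH difference was -0.06, with an interval from -0.17 to 0.05.

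**Figure D3:**
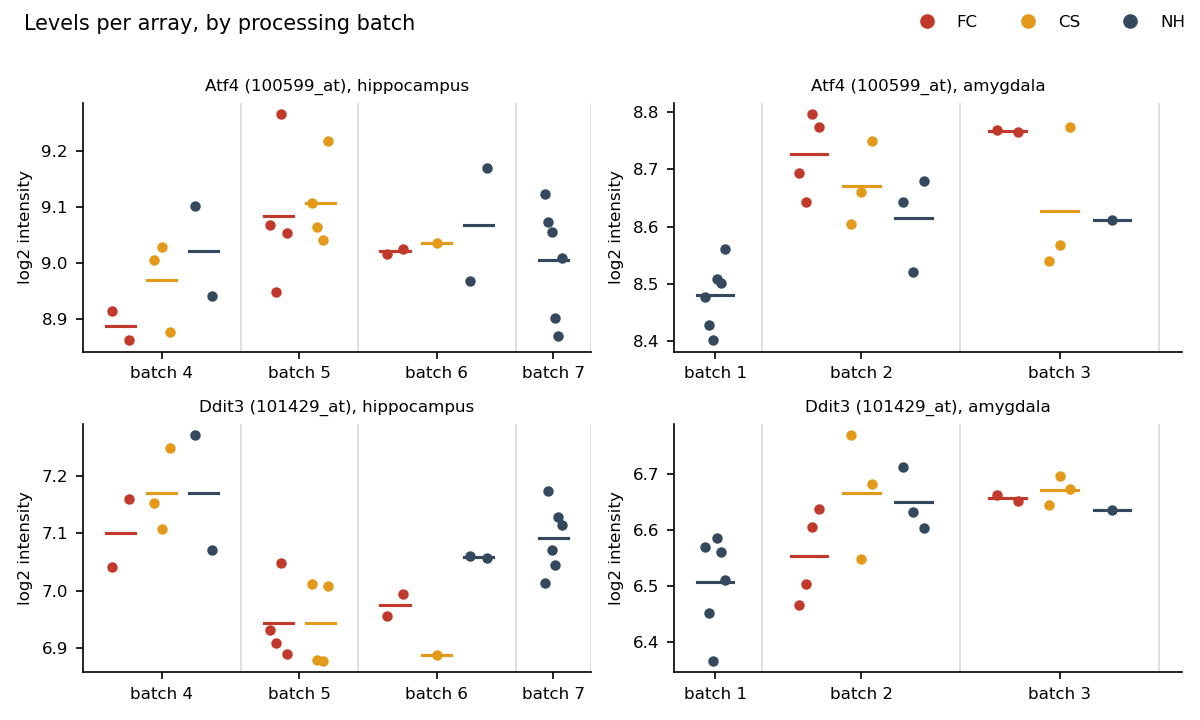
Log2 intensity of Atf4 and Ddit3 in every array (points), grouped by processing batch and, within it, by arm from left to right (FC, CS, NH), with short lines at the means. In amygdala the Atf4 means of FC (8.73 in batch 2 and 8.77 in batch 3) stand above those of NH (8.61 in both batches). The NH arrays of batch 1, which has no other arm, are lower still.

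Hspa5 (101955_at) had the largest fitted FC minus NH difference of the 11 tested members in hippocampus, and it did not pass. In batch 4 its levels were 7.99 and 8.53 in the FC arrays, against 8.39 and 9.05 in the NH arrays, and in batch 6 they were 9.07 and 9.23 in the FC arrays, against 9.20 and 9.43 in the NH arrays. Only 2 of the 4 FC arrays lay below every NH array of their batch. The FC minus NH difference was -0.38 ± 0.159, with an interval from -0.71 to -0.057, and ranked 68th by p among 7453 probe sets (unadjusted p = 0.023, limma adjusted p = 0.9999). It was -0.46 in batch 4 alone and -0.16 in batch 6 alone, and it ran from -0.50 without the NH array numbered 111 to -0.24 without the NH array numbered 100. For CS minus NH it was -0.19, and leaving out the NH array numbered 100 brought this to -0.034. FC and CS arrays differed by -0.19 ± 0.122, with -0.34 in batch 5, where 4 arrays of each arm were run together. In batch 4 this difference was -0.23, and in batch 6, with 1 CS array, it was 0.28, the opposite sign.

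Hspa5 also varied more than nearly all probe sets between replicate arrays. Between arrays of the same arm and batch its SD was 0.27 in hippocampus and 0.253 in amygdala, where the median of all tested probe sets was 0.115 and 0.106, and only 1.87% and 1.09% of probe sets varied more. In amygdala its lowest, median and highest levels were 7.51, 8.18 and 8.47 in FC, 7.86, 8.01 and 8.63 in CS, and 8.02, 8.35 and 8.87 in NH. The FC minus NH difference there was -0.11 ± 0.148, and without the FC array numbered 21927, the lowest at 7.51, it was 0.04.

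Hsp90b1 (160499_at) lay in the same direction as Hspa5 in hippocampus with a smaller size. Its lowest, median and highest levels were 9.01, 9.21 and 9.46 in FC, 9.10, 9.28 and 9.57 in CS, and 9.17, 9.36 and 9.59 in NH. The FC minus NH difference was -0.15 ± 0.0884, with an interval from -0.33 to 0.036. It was -0.23 in batch 4 alone and 0.04 in batch 6 alone. In amygdala Hsp90b1 was 0.06 higher in FC than in NH arrays and 0.12 ± 0.0738 higher in CS than in NH arrays, and neither passed.

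Calr (93523_at) was too dim to be tested, and its values are given as a description. In hippocampus all 4 FC arrays and all 4 CS arrays of the shared batches lay below every NH array of their batch. The levels in batch 4 were 4.39 and 4.39 in the FC arrays and 4.37, 4.42 and 4.47 in the CS arrays, against 4.48 and 4.54 in the NH arrays. In batch 6 they were 4.22 and 4.28 in the FC arrays and 4.23 in the CS array, against 4.38 and 4.39 in the NH arrays. With dim probe sets included, 1.31% of 12422 probe sets were lower in this way in FC and 1.8% in CS. The fitted differences were -0.12 (interval from -0.26 to 0.024) for FC and -0.13 (interval from -0.27 to 0.016) for CS, and the 6 NH arrays of batch 7 alone ranged between 4.15 and 4.63. In amygdala the FC minus NH difference was -0.05.

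The 2 Canx probe sets differed in sign for FC minus NH in amygdala. The brighter set, 94886_at, read 8.16, 8.26, 8.27 and 8.36 in the FC arrays of amygdala batch 2, against 8.30, 8.32 and 8.43 in its NH arrays, and 8.12 and 8.30 in the FC arrays of batch 3, against 8.39 in the NH array. In 5 of the 6 FC arrays it was below all NH arrays run in the same batch, a count with no share over all probe sets beside it. The fitted value was -0.12 ± 0.0658 (unadjusted p = 0.0884, limma adjusted p = 0.894). The dimmer set, 160180_at, was not tested and differed by 0.11 in the other direction. Between arrays of the same arm and batch the 2 sets were related inversely, with r = -0.34 over 25 hippocampus arrays and r = -0.59 over 21 amygdala arrays. In hippocampus the FC minus NH differences were 0.02 for 94886_at and -0.01 for 160180_at.

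No probe set of the disulfide isomerases passed in any comparison. In hippocampus Pdia3 (101060_at) differed by 0.04 between FC and NH arrays, with 0.22 in batch 4 and -0.11 in batch 6. In amygdala it differed by -0.11 ± 0.107 for FC minus NH and by -0.15 ± 0.0965 for FC minus CS. Pdia4 (95423_at) differed by -0.11 ± 0.0826 between FC and NH hippocampus, from 0.06 in batch 4 to -0.27 in batch 6, and by -0.03 in amygdala. Pdia6 had 3 probe sets, and for FC minus NH they gave -0.05 (94207_at), 0.11 (94208_at) and 0.04 (94209_g_at) in hippocampus and -0.03, 0.09 and -0.02 in amygdala. The sets 94208_at and 94209_g_at, which share a source sequence in the platform annotation, were related to each other (r = 0.83 in hippocampus and 0.80 in amygdala) more closely than either was to 94207_at (r from 0.27 to 0.54).

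Beyond the 10 genes, 88 other genes of folding, import, glycosylation and degradation at the endoplasmic reticulum and of the unfolded protein response were listed, of which 72 had a probe set and 55 were tested. None passed in any of the 6 comparisons with limma. At an unadjusted p below 0.05 in hippocampus there were 1 of 72 probe sets for FC minus NH, 0 for CS minus NH and 0 for FC minus CS, where 2.27%, 1.45% and 0.765% of all tested probe sets were below it. In amygdala there were 2 of 71 for FC minus NH, 2 for CS minus NH and 3 for FC minus CS, where the shares of all tested probe sets were 5.15%, 3.92% and 1.23%. In hippocampus 22 were positive and 33 negative both for FC minus NH and for CS minus NH, with medians of -0.02 in each, where 50.3% (FC minus NH) and 49.5% (CS minus NH) of all tested probe sets were negative. In amygdala 30 were positive and 25 negative for FC minus NH, with a median of 0.02, where 44.8% of all tested probe sets were negative, and 33 were positive and 22 negative for CS minus NH, with a median of 0.03, where 46.2% were negative.

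The genes of that list with the smallest p in each direction were named by rule, and none of their differences passed. In FC minus NH hippocampus these were Spcs1 (-0.10 ± 0.0437), a subunit of the signal peptidase, and Erp29 (-0.14 ± 0.072), a chaperone related to the disulfide isomerases, on the lower side. On the higher side were Ssr3 (0.45 ± 0.224) and Ssr1 (0.17 ± 0.0876), subunits of the translocon-associated complex. In CS minus NH hippocampus they were Spcs1 (-0.09) and Dnajc3 (-0.13), a co-chaperone of BiP, against Ssr3 (0.35) and Wfs1 (0.10), a membrane protein of the endoplasmic reticulum. For FC minus CS in hippocampus they were Rcn2 (-0.14) and Lman1 (-0.07) against Srpr (0.15) and Nfe2l2 (0.10).

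In amygdala the same rule named Spcs1 (-0.12 ± 0.0497) and Dnajc3 (-0.11 ± 0.0906) on the lower side of FC minus NH, against Wfs1 (0.18 ± 0.0821) and Ppp1r15b (0.11 ± 0.0514), a regulator of the phosphatase that reverses PERK's action. For CS minus NH it named Spcs1 (-0.07) and Erp29 (-0.09), against Stt3a (0.17 ± 0.0582), the catalytic subunit of an oligosaccharyltransferase, and Txndc12 (0.16). Stt3a was also the lowest by p for FC minus CS (-0.17 ± 0.0516, unadjusted p = 0.00343, limma adjusted p = 0.9995), together with Spcs2 (-0.09), while Os9 (0.12) and Serpinh1 (0.13) were on the higher side. Spcs1 was thus named on the lower side in all 4 comparisons with NH, where comparisons of 1 tissue share their NH arrays.

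Lists of markers for astrocytes, oligodendrocytes, microglia, choroid plexus and endothelial or mural cells held no gene past the limma threshold in any comparison. FC minus NH in hippocampus is the comparison in which Xbp1 and Hspa5 had an unadjusted p below 0.05 with limma. There 2 of 6 astrocyte genes were positive and 4 negative (median -0.07). Their summed intensity lay between 3632 and 4195 in FC arrays and between 3483 and 4142 in NH arrays. The choroid plexus genes split 3 to 3, with sums from 1012 to 1662 in FC arrays and from 961 to 1581 in NH arrays. For FC minus NH in amygdala, 6 of 7 microglial genes were positive (median 0.10), 4 of 6 oligodendrocyte genes were positive (median 0.13), and 5 of 6 astrocyte genes were positive (median 0.03). At an unadjusted p below 0.05 with limma there were 3 of the 7 microglial, 1 of the 6 oligodendrocyte and 1 of the 6 astrocyte probe sets, against 5.15% of all tested probe sets. The summed microglial intensity lay between 1254 and 1430 in FC arrays and between 1161 and 1336 in NH arrays of amygdala. In this comparison the unadjusted limma p of Atf4 was below 0.05. For FC minus NH in hippocampus, 1 of the 6 endothelial or mural probe sets had an unadjusted p below 0.05 with limma, against 2.27% of all tested probe sets. None of the astrocyte, choroid plexus, oligodendrocyte or microglial probe sets did. The part of these cell types in the values above was not tested, and in tissue samples fewer cells of a type and less RNA per cell cannot be told apart.

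The members were next compared with Hspa5 from array to array. Each array's level was taken as its deviation from the mean of its arm and batch, so that neither arm nor batch could give a relation, over the 25 hippocampus and 21 amygdala arrays that had a partner of the same arm and batch. Of 24 relations (12 probe sets in 2 tissues), 6 in hippocampus and 4 in amygdala passed after Benjamini-Hochberg adjustment of two-sided permutation tests, all with r above 0. The largest unadjusted permutation p that passed was 0.0113. Of all other tested probe sets, 28.2% in hippocampus and 25.6% in amygdala had a permutation p that low against Hspa5 (15.2% and 14.3% with r above 0), so that such relations were common on these arrays. Xbp1 followed Hspa5 with r = 0.782 and rho = 0.771 in hippocampus (permutation p = 0.00014, adjusted p = 0.00336) and with r = 0.659 and rho = 0.655 in amygdala (permutation p = 0.00169, adjusted p = 0.00688). Without the 2 arrays farthest from the median of Hspa5, r was 0.78 and 0.657. Within single batches the r of Xbp1 was 0.899 in batch 4 (7 arrays), 0.433 in batch 5 (8 arrays) and 0.957 in batch 7 (6 arrays) of hippocampus, and 0.911 in batch 1 (6 arrays) and 0.598 in batch 2 (10 arrays) of amygdala.

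Hsp90b1, Pdia3 and the dimmer Canx set also passed in both tissues. Hsp90b1 had r = 0.774 and rho = 0.709 in hippocampus (permutation, adjusted p = 0.00688) and r = 0.672 and rho = 0.652 in amygdala (permutation, adjusted p = 0.0271). Pdia3 had r = 0.695 and rho = 0.636 (permutation, adjusted p = 0.00688) and r = 0.781 and rho = 0.792 (permutation, adjusted p = 0.00957). Canx 160180_at had r = 0.674 and rho = 0.767 (permutation, adjusted p = 0.00688) and r = 0.693 and rho = 0.666 (permutation, adjusted p = 0.0216). In hippocampus Pdia6 passed as well with 94207_at (r = 0.709, rho = 0.665) and, by r, with 94209_g_at (r = 0.513, rho = 0.432). The rho of 94209_g_at did not pass (permutation, adjusted p = 0.0947). Without the 2 farthest arrays r was 0.373 for 94209_g_at and 0.5865 for 94207_at, and these values were not tested. Canx 94886_at, Pdia4 and Calr did not follow Hspa5, with r from -0.422 to 0.0577 over both tissues.

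Both among the genes with an ERSE match shown above and among those without, some followed Hspa5 and others did not. Of the other genes with a match, Hsp90b1 and the dimmer Canx set followed Hspa5 in both tissues. Pdia6 passed in hippocampus only, and not with every set. In amygdala its r was 0.51 (94207_at), 0.414 (94208_at) and 0.581 (94209_g_at), and none of these passed. Whether r differed between the tissues was not tested. The brighter Canx set and Calr, whose probe set was dim, did not. Of the genes without a match, Xbp1 and Pdia3 followed Hspa5 in both tissues, and Pdia4, Ddit3 and Atf4 passed in neither. In hippocampus and amygdala r was 0.432 and 0.364 for Ddit3 and 0.284 and 0.44 for Atf4. The part of the matches in these relations was not tested. Over all 7452 other tested probe sets, r with Hspa5 had a median of 0.042 in hippocampus and 0.00126 in amygdala, and the middle 90% spanned -0.704 to 0.729 (hippocampus) and -0.743 to 0.79 (amygdala). The share of probe sets with a higher r than Xbp1 was 1.95% in hippocampus and 14.5% in amygdala, and the share with a higher r than Hsp90b1 was 2.31% and 13.5%. In amygdala, therefore, more than 1 in 10 of all probe sets followed Hspa5 at least as closely as Xbp1 and Hsp90b1 did.

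**Figure D4:**
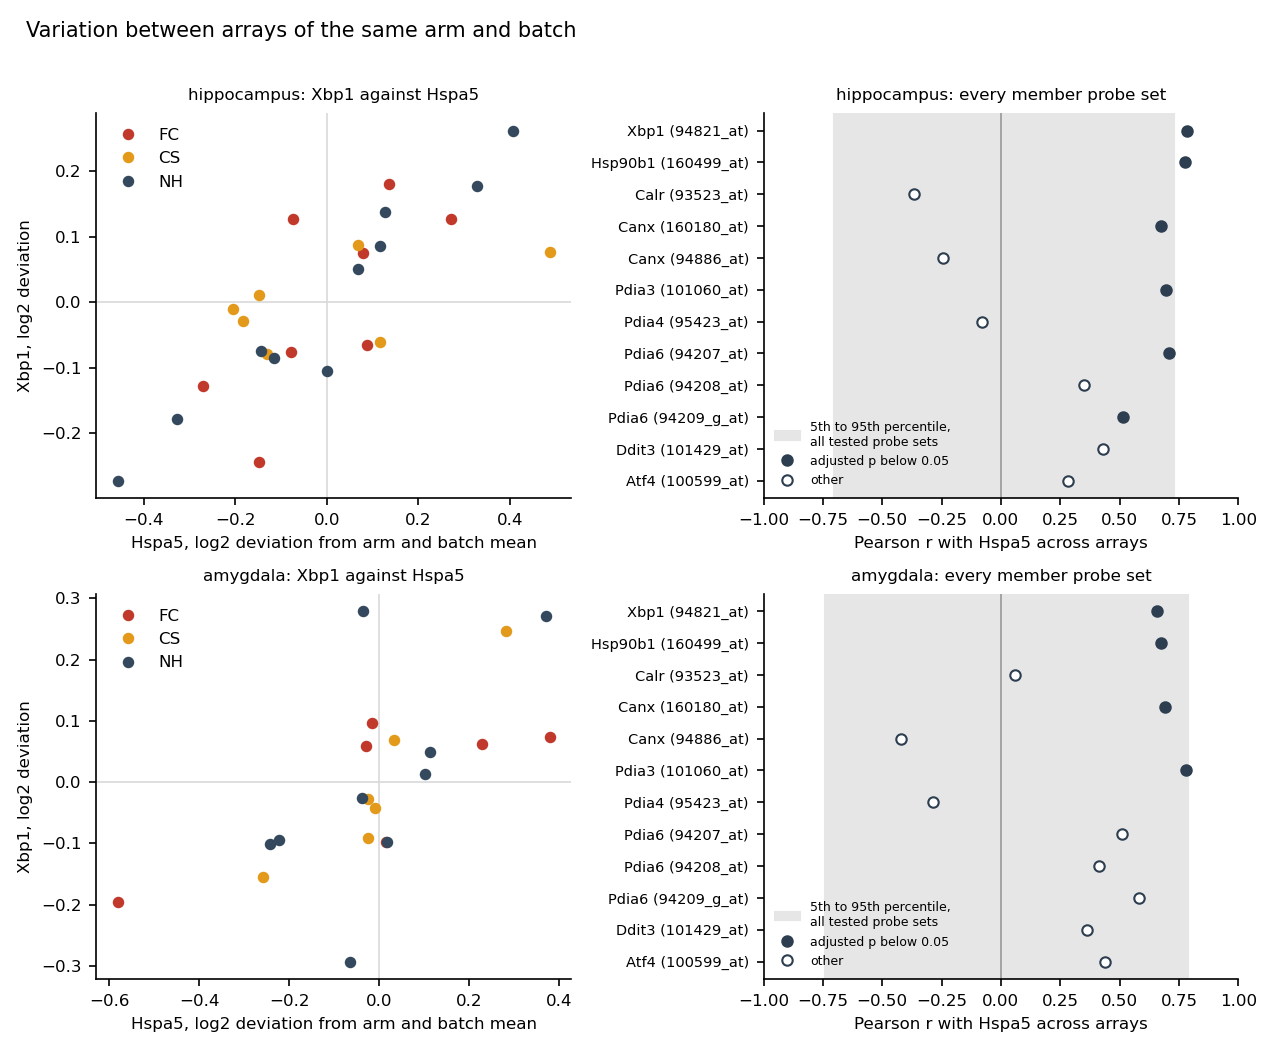
Left, deviation of Xbp1 from the mean of its arm and batch against that of Hspa5, 1 point per array, in hippocampus (above, 25 arrays) and amygdala (below, 21 arrays). Right, Pearson r with Hspa5 for each of the 12 other member probe sets, filled where the adjusted p was below 0.05, over a grey band for the middle 90% of all tested probe sets; Xbp1 (0.782) and Hsp90b1 (0.774) lie just outside the band in hippocampus and inside it in amygdala.

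By the rule of the 5 highest values of the lower r of both tissues, the genes most like Xbp1 were G3bp2 (r = 0.849 in hippocampus and 0.842 in amygdala), Marcks (0.863 and 0.83), Sec62 (0.813 and 0.806), Rbbp9 (0.815 and 0.804) and Fermt2 (0.867 and 0.802), among 6506 probe sets ranked. Sec62 belongs to the machinery that moves proteins into the endoplasmic reticulum and was on the list of other genes above. Hspa5 ranked 254th and Hsp90b1 851st. The genes most like Hspa5 were Ipo8 (0.888 and 0.905), Sowaha (0.875 and 0.872), Pkp4 (0.86 and 0.87), Zfr (0.852 and 0.864) and Kifap3 (0.849 and 0.848), none of them a chaperone. Pdia3 ranked 322nd, Hsp90b1 412th and Xbp1 462nd in likeness to Hspa5.

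A single axis of variation between arrays of the same arm and batch, computed after these correlations had been seen, held 40.9% of that variance in hippocampus and 41.1% in amygdala. In each tissue 36% of all probe sets had an r with it above 0.7 or below -0.7. The r of Hspa5 with the axis was 0.782 in hippocampus and 0.877 in amygdala, that of Xbp1 was 0.77 and 0.659, and that of Pdia3 was 0.476 and 0.9. The arms did not differ in the score on this axis beyond its error, with FC minus NH at -0.337 (95% interval from -1.67 to 0.994) in hippocampus and at 0.429 (interval -0.918 to 1.78) in amygdala, in units of the SD within groups.

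With the score on the axis as a covariate the errors became smaller and the hippocampal differences stayed close to those above. Xbp1 was then -0.25 ± 0.069 for FC minus NH (unadjusted p = 0.00137, limma adjusted p = 0.565) and -0.24 ± 0.0694 for CS minus NH (unadjusted p = 0.00172, limma adjusted p = 0.755), and Hspa5 was -0.31 ± 0.105 for FC minus NH (limma adjusted p = 0.933). In amygdala, FC minus NH became -0.21 ± 0.0746 for Hspa5 (unadjusted p = 0.0102, limma adjusted p = 0.486), -0.18 ± 0.0593 for Pdia3 (limma adjusted p = 0.423) and 0.11 ± 0.0455 for Atf4 (limma adjusted p = 0.575). No member passed in this fit.

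**Figure D5:**
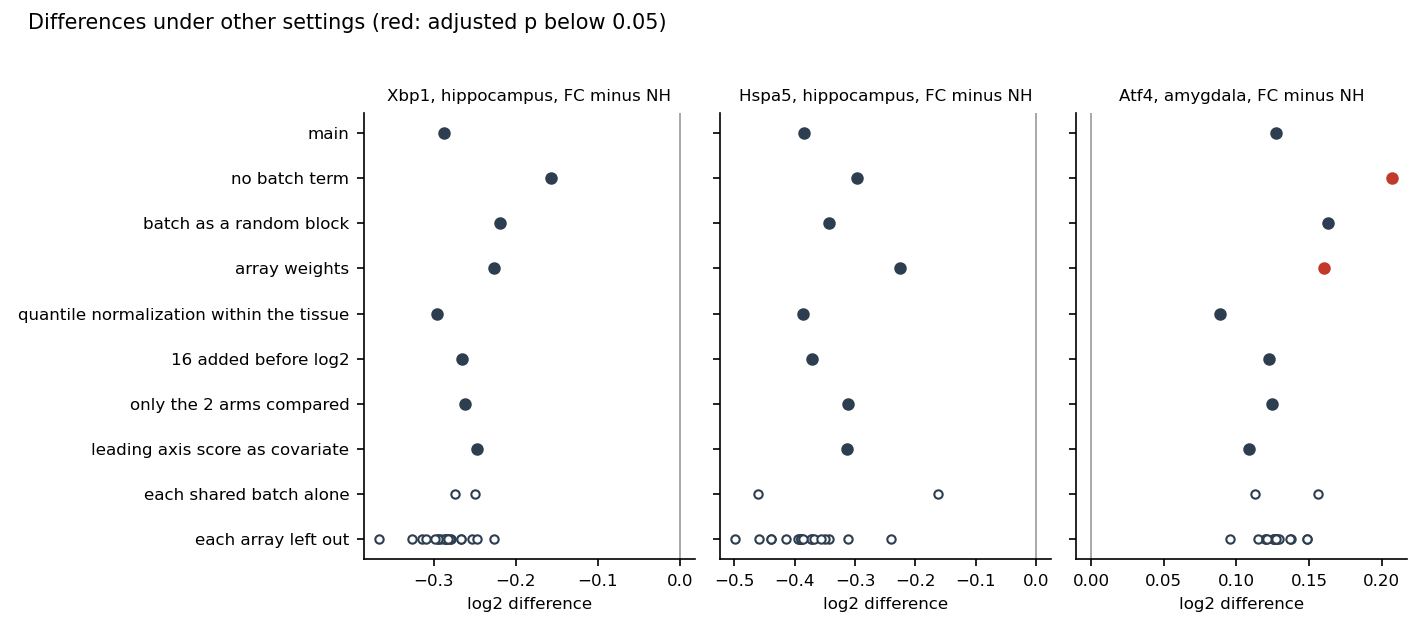
Log2 difference of Xbp1 and Hspa5 for FC minus NH in hippocampus and of Atf4 for FC minus NH in amygdala (horizontal axes) under each setting (rows), with open points for single batches and for each array left out. Red points passed the adjusted threshold, which happened only for Atf4 (0.21 with no batch term and 0.16 with array weights), and all points of a panel lie on 1 side of 0.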

How the data were processed

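The authors deposited 1 intensity per probe set and array on a linear scale, and the submitters' processing notes name RMA, the robust multi-array average, without a version. The median of an array lay between 76.4 and 80.5 in hippocampus and between 52.2 and 56.0 in amygdala. Separate normalization of the 2 tissues would give such values, and no level is compared between them. The log2 was taken with nothing added, and 66 control probe sets were left out. Of the rest, 10855 named 1 gene in the platform annotation. In each tissue the dimmest 40% were left out and limma 3.58.1 (R 4.3.3) was fitted with arm and batch, two-sided, with Benjamini-Hochberg adjustment over 7453 probe sets, or over 7242 for differences between tissues. Correlations used 100000 permutations of arrays within arm and batch (Python 3.11.15, numpy 2.4.6). The fits were checked on simulated data. Arrays have no read depth, and their number limits the precision. All member probe sets are named, with the 2 smallest p in each direction from the other list and the 5 genes most like Xbp1 and Hspa5. Members and lists were chosen with earlier results of these data known.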

Additional observations from a re-analysis of the deposited data

Results flagged for a closer look

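Of 78 groups of 6 to 10 arrays checked (13 probe sets in 6 groups), 1 held an array far from the others, where chance alone gives about 1 in 20. The CS amygdala array numbered 3151152, of batch 3, read 3.587 for Calr (93523_at), the lowest of its 6 arrays, and the nearest of the others read 3.745. The gap made up 0.746 of the range of the group. This probe set was too dim to be tested.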

How the results depend on the processing

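The counts of members past the threshold were recomputed 204 times and 3 moved. For FC minus NH in amygdala the count was 1 (Atf4) with no batch term and 1 with array weights, against 0. For correlations with Hspa5 it was 7 in amygdala, against 4, with deviations from arm means and no batch. Of 2213 recomputed log2 differences of members, 2 passed, and 220 changed sign, all of them differences that had not passed. Over all probe sets, counts moved by more than 1.5 times as follows. With no batch term they were 7 and 7 for FC minus NH and CS minus NH in hippocampus, against 1 and 1, and 211 and 17 in amygdala, against 7 and 1. With batch as a random block they were 4 for FC minus NH in hippocampus and 4 for CS minus NH in amygdala. With array weights they were 3 for FC minus NH in hippocampus, and 911 and 5 for FC minus NH and CS minus NH in amygdala. With 60% of probe sets left out, and fewer tested, hippocampus FC minus NH and CS minus NH and amygdala CS minus NH had 0. In batch 6 alone, FC minus CS in hippocampus had 38, against 0, and FC minus NH and CS minus NH had 4 and 7. FC minus NH had 0 in batch 4 alone, 2 in batch 2 alone and 1 in batch 3 alone. FC minus CS in amygdala had 1 in batch 3 alone. CS minus NH in hippocampus had 0 with only the 2 arms compared and 0 without the NH array numbered 100. FC minus NH had 2 without the NH array numbered 111 in hippocampus and 4 without the NH array numbered 28892 in amygdala. The causes were not tested. No paired analysis was possible because the arms of a tissue share no replicate number.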
